A study of Homo sapiens with 14 samples.

Results

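Mitotic cells are described here as they were found on days 6 and 9 of a long-term culture of SW620, a line from a lymph node metastasis of a colorectal adenocarcinoma. Members were chosen by measured counts, namely a cell was taken as mitotic when at least 3 of 6 genes of G2 and mitosis (PLK1, HMMR, AURKA, CENPF, CCNB1 and CDC20) each had 2 or more unique molecular identifiers (UMIs, each 1 captured mRNA molecule). A reference cell came from the same library and had none of the 6 genes at 2 UMIs. Of 27657 cells kept on the 2 days, 8937 were mitotic, 9068 were reference cells and 9652 lay between the classes, out of 48282 kept cells in the whole series.

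The study asked how TET2, a dioxygenase that oxidises 5-methylcytosine in DNA, acts while colonies of SW620 age in a dish. One line, labelled SW620 and called FLAG here, carried the FLAG vector as control, and the other, SW620-TET2CD, overexpressed the catalytic domain of TET2. Both were grown as colonies for 15 days without passage. Each line gave 1 single-cell library on each of days 6, 9, 12 and 15, so no culture was repeated. For mitotic against reference cells, p-values measure how evenly the difference held over libraries of different lines and days. Within mitotic cells, they measure how evenly the line difference held over the days, or the day difference over the lines. The promoter of the transgene and the clonality of the lines were not stated in the sources used here. On days 6 and 9 the libraries held 8110 to 10713 cell barcodes and 71576979 to 128282918 UMIs each. A cell was kept if it had from 200 to 4500 genes, from 1000 to 20000 UMIs and a mitochondrial share no higher than 10%. Pairs of libraries shared 11 to 31 barcode sequences, 0.16 to 0.44% of the smaller library of a pair. Of 16 markers of blood, stromal, endothelial and liver cells, PTPRC, COL3A1, COL1A2 and MS4A1 had no UMI in either class, and the summed level of all 16 was 9.21 to 19.9 CPM in mitotic cells and 12.1 to 24.6 CPM in reference cells. CPM are counts per 1000000 UMIs of a class in 1 library, after its scaling factor in the test at hand, so that 1 gene can differ slightly between comparisons. Levels summed over gate genes or other cell types, and levels by number of gate genes, use the UMI total alone.

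A dividing cell copies its DNA in S phase, gathers the mitotic machinery during G2, and then condenses its chromosomes, builds a spindle and parts the sister chromatids. Cyclin B with its kinase CDK1 drives entry into mitosis, PLK1 and the Aurora kinases organise spindle poles and chromosome attachment, and the anaphase-promoting complex, activated by CDC20, marks cyclin B and securin for destruction so that anaphase can begin. Many of these genes are transcribed together late in the cycle, under B-MYB, FOXM1 and the MuvB complex, which binds the cell cycle genes homology region (CHR) close to the start of transcription. Messenger RNA levels do not part G2 from mitosis, so the cells named mitotic here are cells with the mRNA set of G2 and mitosis, including those that were still approaching division.

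The 6 gate genes chose the cells, and their levels are given only to show what was chosen. Their summed level in mitotic cells was 1480 CPM in FLAG on day 6, 1710 CPM in TET2CD on day 6, 2080 CPM in FLAG on day 9 and 1760 CPM in TET2CD on day 9, an order of libraries kept in every sentence that follows, against 104, 156, 137 and 95.1 CPM in reference cells. CCNB1, cyclin B1, had 2 or more UMIs in 92.4 to 95.3% of mitotic cells, CDC20 in 64.8 to 77.9% and AURKA, the Aurora kinase of the spindle poles, in 42.3 to 53.0%. Just inside the threshold, cells with exactly 3 of the genes (785, 982, 680 and 616 cells) had a summed level of 914, 1230, 1530 and 1050 CPM. Just outside it, cells with exactly 2 of the genes (943, 1290, 912 and 842 cells) had 601, 837, 1040 and 711 CPM. All 6 genes passed in 391, 444, 287 and 421 cells.

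Mitotic cells made up 40.3% of kept cells in FLAG on day 6 (95% Clopper-Pearson interval 39.0 to 41.6%), 34.5% in TET2CD on day 6 (33.5 to 35.5%), 26.3% in FLAG on day 9 (25.3 to 27.3%) and 29.7% in TET2CD on day 9 (28.6 to 30.8%), with intervals that cover counting error only. The mean was 32.7% ± 6.08 (SD, n = 4). On days 12 and 15 the same gate took 2.65% (2.17 to 3.2%) of FLAG and 8.04% (7.2 to 8.94%) of TET2CD cells on day 12, and 3.28% (2.88 to 3.73%) of FLAG and 3.23% (2.79 to 3.71%) of TET2CD cells on day 15, 834 cells in all. The lowest early share was thus above the highest late one. Without the upper limits on genes and UMIs the late shares were 8.48, 19.6, 3.82 and 5.24%, still below the lowest early share of 27.0% under that setting.

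The order of the 4 early shares changed when depth was made equal. Mitotic cells had a median of 14668, 10568, 8825 and 13282 UMIs in the order given above, with the largest share in the deepest library but a smaller share in TET2CD on day 9 than in the shallower TET2CD on day 6. When each cell was thinned to 5000 UMIs, a number that 79.1 to 98.9% of cells reached, with the others left out, the shares were 12.9, 16.5, 18.1 and 12.5%, against 40.7, 36.6, 31.4 and 30.8% in the same cells before thinning. FLAG on day 9 changed from one of the lower shares to the highest. No order of lines or of days 6 and 9 was therefore read from these shares. The late shares stayed lower after thinning, at 1.15% in FLAG and 3.23% in TET2CD on day 12 and 2.25 and 1.86% on day 15.

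**Figure D1:**
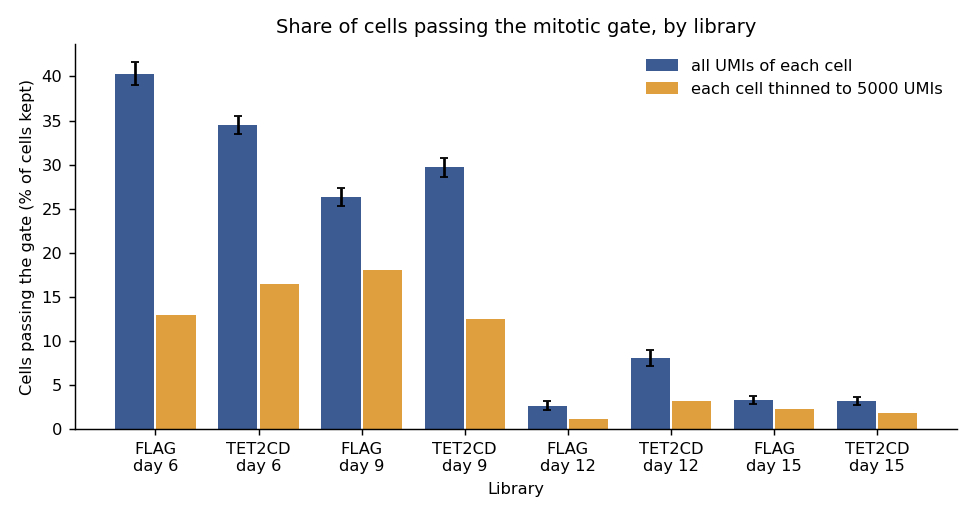
Share of kept cells that passed the mitotic gate (%) in each of the 8 single-cell libraries, with all UMIs (blue bars, with 95% Clopper-Pearson intervals) and after thinning each cell to 5000 UMIs (orange bars, % of the cells with that many). The 4 early shares run from 26.3 to 40.3% unthinned and from 12.5 to 18.1% thinned, and no late share is above 8.04%.

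Mitotic cells also held more mRNA molecules than reference cells. The reference medians were 11033, 6961, 5513 and 9322 UMIs, so that the mitotic median was 1.33, 1.52, 1.6 and 1.42 times higher. The mean log2 ratio was 0.55 ± 0.12 (SD, n = 4), higher in 4 of 4 libraries. It was 0.245 when the gate was applied to cells thinned to 5000 UMIs and 0.378 against all other kept cells. Without the upper limits on genes and UMIs the ratios of medians were 1.59, 1.61, 1.63 and 1.64. Their mean log2 was then 0.692 (SD 0.0213), so the size of the ratio and its spread between libraries depended on these limits. A gate that asks for UMIs takes deeper cells, so the ratio is a description, and 4 libraries could not reach a p under 0.05 in an exact sign-flip permutation test. The mitochondrial share of UMIs was lower in mitotic cells of each library, at 5.01, 3.67, 7.32 and 6.87% against 6.11, 4.53, 8.23 and 7.96%.

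Genes of mitosis outside the gate were higher in the same cells. All 10 markers set aside to check the label (CCNB2, AURKB, BUB1, TPX2, KIF20A, CENPE, CENPA, TOP2A, UBE2C and BIRC5) passed the test as higher, and for each the 4 mitotic sums lay above the 4 reference sums, which was so for 13% of the 14749 genes tested. CCNB2, cyclin B2, stood at 148, 151, 171 and 155 CPM in mitotic cells and 24.0, 36.0, 28.8 and 20 CPM in reference cells, a log2 fold change of 2.54. KIF20A, a kinesin of the central spindle, stood at 28.5, 31.8, 34.3 and 30.3 CPM against 1.81, 3.02, 1.39 and 1.18 CPM (log2 fold change 4.10, SE 0.14). Summed over the class, the cells thus carried the markers that their name calls for, though these genes are transcribed with the gate genes. Whether some of the cells were still in S phase was not tested. Of 13 markers of S phase, 5 rose and 2 fell, with a median log2 fold change of 0.11. In cells thinned to 5000 UMIs, where both classes were chosen anew, 2 rose and 10 fell (median −0.35). With classes matched in UMIs 4 rose and 4 fell (median −0.09). The markers thus had no direction that held over these choices of cells. Markers also split within single complexes, MCM7 of the replicative helicase standing at 0.41 and MCM5 and MCM6 at −0.46 and −0.47.

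Over all genes, 3809 of 14749 were higher in mitotic than in reference cells (25.8%) and 3564 were lower (24.2%), by edgeR's quasi-likelihood test with the library as block and Benjamini-Hochberg adjusted p under 0.05, with a median log2 fold change of −0.01. With upper-quartile scaling the median moved to −0.12 and the split became 2295 higher against 5304 lower, so the direction of small changes depends on the scaling. The gate did not use these genes, but genes transcribed in the same cells as the gate genes are not independent of it.

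Among genes whose level averaged 20 CPM or more, CENPA increased the most. CENPA is the histone H3 variant that marks centromeres, and it stood at 64.9, 69.0, 64.1 and 62.2 CPM in mitotic cells and 4.93, 7.14, 5.04 and 3.69 CPM in reference cells. It was 12.7-fold higher (log2 fold change 3.66, SE 0.09, adjusted p = 5.9e-11). UBE2C, the ubiquitin-conjugating enzyme of the anaphase-promoting complex, stood at 384, 494, 485 and 403 CPM against 35, 55.2, 33.3 and 22.2 CPM (log2 fold change 3.65, SE 0.12, adjusted p = 1.58e-10). For both, no mitotic sum came near a reference sum, and the mitotic sums of CENPA spanned only 62.2 to 69.0 CPM. DLGAP5, which stabilises spindle microtubules, stood at 93.1, 107, 131 and 126 CPM against 5.76, 14.5, 12.0 and 5.6 CPM (log2 fold change 3.63, SE 0.16, adjusted p = 2.14e-09). TOP2A, the topoisomerase that untangles sister chromatids, stood at 338, 433, 663 and 566 CPM against 40.2, 66.7, 74.1 and 46.6 CPM (log2 fold change 3.13, SE 0.10, adjusted p = 1.58e-10). Unlike CENPA, it was higher in both day 9 libraries than in both day 6 libraries.

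The other 8 of the 12 largest increases had log2 fold changes from 3.18 to 3.65. They were PIMREG, CDCA3 (a trigger of WEE1 loss at mitotic entry), CENPE (the kinesin that carries chromosomes to the spindle equator), DEPDC1, GTSE1 (which binds microtubules and restrains p53), ASPM (a spindle pole protein), KIF14 (a kinesin of the midbody) and KIF2C (which takes microtubules apart at kinetochores). CENPE stood at 48.7, 54.8, 69.3 and 58.6 CPM against 3.68, 6.85, 6.54 and 3.41 CPM, and GTSE1 at 78.9, 109, 133 and 120 CPM against 6.73, 17.0, 13.2 and 8.19 CPM. The reference level of TET2CD on day 6 was the highest of the 4 in most of the 12 genes, but not in TOP2A or KIF14. It was also the highest for the summed gate genes, at 156 CPM. For the summed gate genes, which chose the cells, the mitotic over reference ratio was lowest in TET2CD on day 6 and highest in TET2CD on day 9. AURKA alone did not keep this order. All 12 genes, and the 12 with the largest decreases below, kept direction and call under each of 16 other settings, among them cells thinned to 5000 UMIs, classes matched in UMIs within each library, and each library left out.

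**Figure D2:**
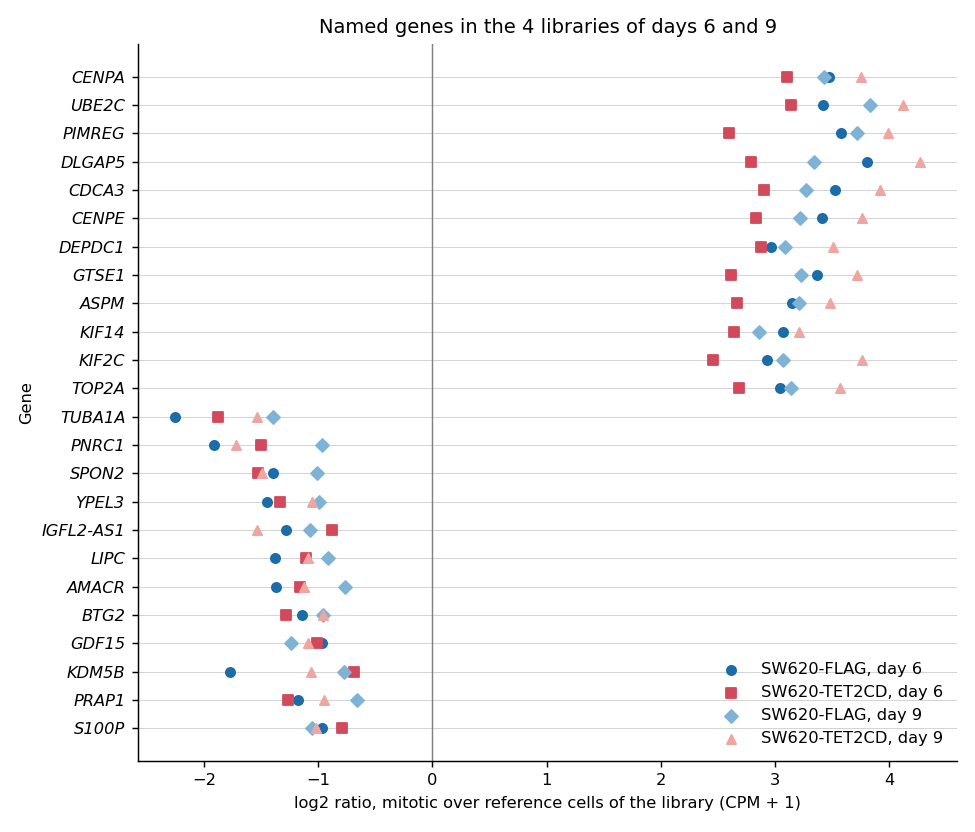
Log2 ratio of mitotic over reference level (CPM + 1) in each of the 4 libraries for the 12 genes with the largest increase and the 12 with the largest decrease, 1 symbol per library. All increases lie between 2.46 and 4.27, with TET2CD day 6 the lowest and TET2CD day 9 the highest for each of the 12 rising genes, and all 12 decreases lie left of 0.

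The promoters of these genes were read for the letters that CHR elements carry, TTTGAA (or TTCAAA, its other strand) and TTCGAA, within 100 bases before and 50 after the start of transcription given by RefSeq (GRCh38.p14). Of the 12 genes, 10 matched an entry and 6 of those held the letters. These 6 are shown because they hold the letters, from 80 bases before to 20 bases after the start, 5′ to 3′ on the gene's strand. Capitals mark the CHR letters and CCAAT, the box bound by the factor NF-Y. The windows are CENPA at chr2:26785976-26786075 on the plus strand, DLGAP5 at chr14:55191566-55191665 on the minus strand, CDCA3 at chr12:6851267-6851366 on the minus strand, DEPDC1 at chr1:68497063-68497162 on the minus strand, GTSE1 at chr22:46296790-46296889 on the plus strand and KIF14 at chr1:200620732-200620831 on the minus strand.
CENPA: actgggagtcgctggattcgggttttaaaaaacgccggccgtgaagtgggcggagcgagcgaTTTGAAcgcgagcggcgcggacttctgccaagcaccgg
DLGAP5: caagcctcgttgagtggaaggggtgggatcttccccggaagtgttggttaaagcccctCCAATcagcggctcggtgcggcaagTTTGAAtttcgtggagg
CDCA3: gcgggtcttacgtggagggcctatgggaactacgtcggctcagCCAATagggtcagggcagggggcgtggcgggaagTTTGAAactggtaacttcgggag
DEPDC1: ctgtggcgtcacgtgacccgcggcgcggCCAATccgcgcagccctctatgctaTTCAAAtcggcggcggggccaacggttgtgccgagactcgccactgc
GTSE1: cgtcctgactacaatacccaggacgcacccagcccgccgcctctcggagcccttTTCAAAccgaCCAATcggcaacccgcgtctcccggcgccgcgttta
KIF14: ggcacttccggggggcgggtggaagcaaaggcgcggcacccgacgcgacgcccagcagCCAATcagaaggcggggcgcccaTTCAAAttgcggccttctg

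Of the 10 matched promoters 7 held a CCAAT box and 5 held both. Among the 6 windows printed only CENPA had no CCAAT box. In DLGAP5, CDCA3, DEPDC1 and KIF14 the box stood before the CHR letters and in GTSE1 after them. Among all 35116 promoters with an entry, 7.37% held the CHR letters and 21.3% a CCAAT box on either strand. Of the genes tested, 10458 matched a promoter and 4.26% held the CHR letters, against 7.14% of the 3027 matched genes that were higher in mitotic cells and 2.83% of the 2440 that were lower. Of the genes higher by at least 1 on the log2 scale 163 of 240 matched, and 46.0% of these held the CHR letters, 47.9% a CCAAT box and 27.6% both, against 1.35% with both among the genes tested. Of the 10 matched promoters of the 12 largest decreases none held the CHR letters and 5 held a CCAAT box. A match of 6 letters is a description of these windows, and binding was not measured.

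Genes of the mitotic machinery were then followed by role. Together the lists of kinases, cyclins, spindle, cytokinesis, kinetochore, checkpoint, chromosome structure, anaphase-promoting complex and centrosome named 161 genes outside the gate. Of these 152 were higher in mitotic cells and 3 were lower, with a median log2 fold change of 1.29 against −0.01 over all genes. After thinning to 5000 UMIs 137 were higher and 4 lower (median 1.06), and with classes matched in UMIs 139 were higher and 2 lower (median 1.20). With upper-quartile scaling 139 were higher and 5 lower (median 1.18), and by DESeq2 144 were higher and 2 lower. The counts by role that follow are those of the main setting, and not every call held under the others.

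All 20 kinases and phosphatases of mitosis rose, with a median log2 fold change of 1.36. AURKB, the Aurora kinase of the chromosomal passenger complex, rose by 3.02 and BUB1, a kinase of the spindle checkpoint, by 2.99. ENSA and ARPP19, whose phosphorylated forms hold back the phosphatase PP2A during mitosis, stood at 0.09 and 0.25. The range within the group was therefore wide. All 6 cyclins and CDK partners of G2 and M rose (median 2.30), CCNA2, cyclin A2, by 2.66, and CKS2 and CKS1B, which help cyclin-dependent kinases hold their substrates, by 1.88 and 1.62.

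All 36 spindle motors and microtubule proteins rose (median 2.16), with STMN1, a tubulin-binding protein, at 0.11 and NUMA1, which anchors spindle poles, at 0.21 as the lowest. All 26 centromere and kinetochore genes rose (median 1.12), from CENPA and CENPE at the top to DSN1 at 0.31 and SKA2 at 0.63. All 13 genes of the passenger complex and spindle checkpoint rose (median 2.35), BUB3 by 0.80 and TRIP13, which resets the checkpoint protein MAD2, by 1.11. Of 13 cytokinesis genes 12 rose (median 1.96), with KIF23, a kinesin of the midzone, at 2.61, ECT2, which activates RHOA at the cleavage furrow, at 1.08 and RHOA itself at 0.09. SEPTIN9 did not pass the test.

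Among 21 genes of condensin, cohesin and chromosome structure 20 rose (median 0.98), MKI67, the coat protein of mitotic chromosomes, by 2.55, while the cohesin regulators WAPL and PDS5A rose by only 0.17 and 0.22. The anaphase-promoting complex was uneven. Of 19 genes 14 rose and 1 fell with a median of 0.26, and its 2 dedicated ubiquitin-conjugating enzymes stood out, UBE2C at 3.65 and UBE2S at 2.17, whereas the small subunit CDC26 fell by 0.20. Of 15 centrosome and centriole genes 13 rose and 2 fell (median 0.76), PCNT by 0.76 and SASS6 by 0.70, while SDCCAG8 and CEP97 were each at −0.30.

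Of 19 transcription factors of the cell cycle 11 rose and 4 fell. FOXM1, an activator of G2 and M genes, stood at 80.4, 90.6, 94.8 and 99.5 CPM in mitotic and 19, 35.4, 26.7 and 19 CPM in reference cells (log2 fold change 1.89), and MYBL2, which encodes B-MYB, rose by 1.01. E2F1 and E2F2, activators of the G1 to S transition, fell by 0.59 and 0.52, and TFDP2, a partner of E2F proteins, by 0.56. Of 7 D and E cyclins and their kinases 4 rose and 3 fell. CDK2, CCND3, CDK4 and CCND1 rose by 0.30, 0.22, 0.20 and 0.16, CDK6 was at −0.09, and CCNE1, cyclin E1, stood at 4.85, 3.94, 2.04 and 2.71 CPM against 7.01, 9.53, 5.38 and 6.05 CPM (log2 fold change −1.05), with CCNE2 at −1.07. With upper-quartile scaling none of the 7 rose and 3 fell. Every mitotic sum of CCNE1 was below every reference sum, as was so for 10.7% of the genes tested.

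**Figure D3:**
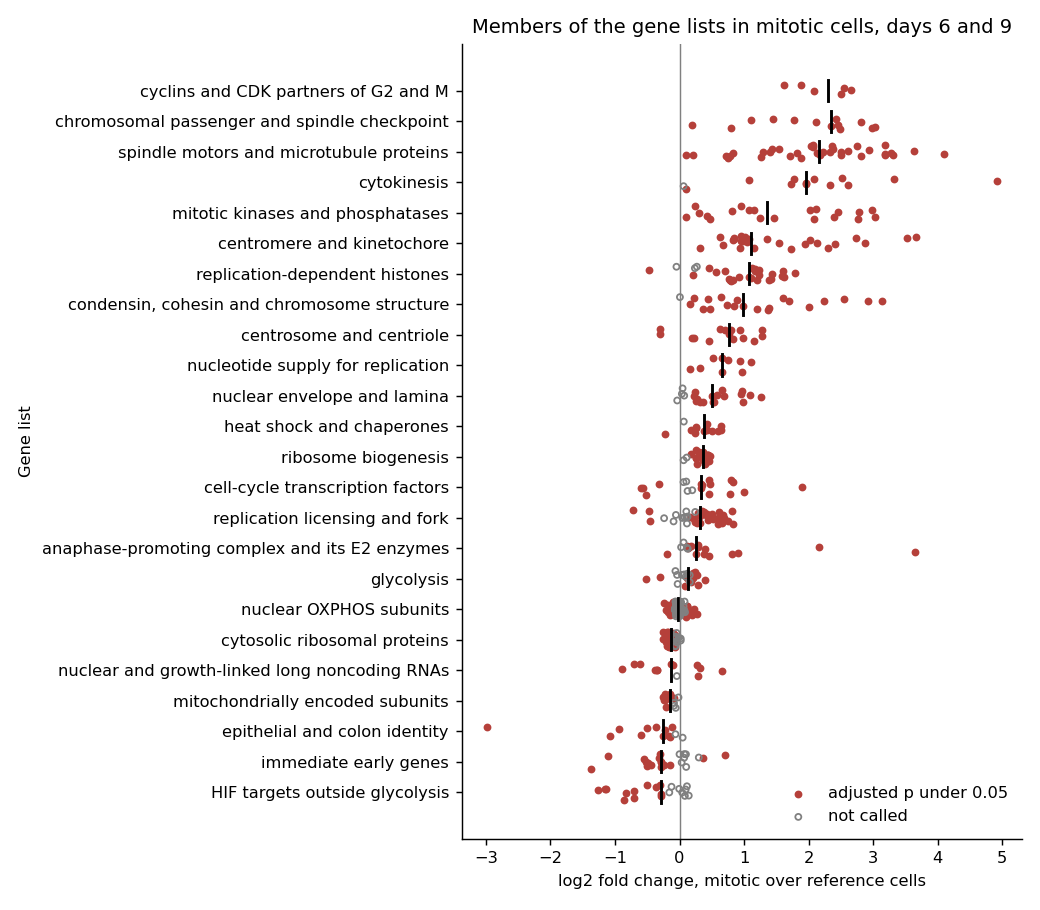
Log2 fold change of each tested gene of 24 gene lists, mitotic over reference cells, 1 row per list, points filled where the adjusted p was under 0.05 and a bar at the median. The lists of the mitotic machinery have medians right of 0, up to 2.35, and the lists of ribosomal proteins, epithelial genes and HIF targets have medians left of it.

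Genes of DNA replication gave a different picture, one that turned in thinned cells. Thinning also changed which cells passed the gate, from 2232 to 709 in FLAG on day 6, and which were reference cells. In that library reference cells were 23.2% of kept cells before thinning and 48.2% of the thinned cells. Of 39 genes of replication licensing and forks 26 were higher and 3 lower (median 0.31), RFC3 of the clamp loader at 0.83 and UNG, uracil-DNA glycosylase, at −0.72. After thinning to 5000 UMIs 4 were higher and 20 lower (median −0.23), and with classes matched in UMIs 13 were higher and 6 lower (median 0.07), so no direction held for the list. All 9 genes of nucleotide supply rose (median 0.66), RRM2 of ribonucleotide reductase by 1.1 and thymidine kinase TK1 by 0.97, and 5 rose and 2 fell after thinning. Of 29 replication-dependent histone genes 25 rose and 1 fell (median 1.07), whereas 6 rose and 3 fell after thinning (median 0.11). HIST1H4C stood at 1290, 1410, 1560 and 1620 CPM against 475, 867, 938 and 522 CPM (log2 fold change 1.12). Messages of this kind mostly lack a poly(A) tail, which the library chemistry captures, and copies of a histone are nearly identical, so their levels are uncertain. Of 12 variant histones and HMG proteins 10 rose and 1 fell, HMGB2, a chromatin protein of dividing cells, at 584, 507, 423 and 458 CPM against 126, 165, 115 and 82.5 CPM (log2 fold change 2.04).

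Sorting the kept cells by how many of the 6 gate genes they passed, from 0 to 6, showed where these levels turned. The values are means over the 4 libraries and a description only, since the median UMIs rose along the same steps, from 11033 to 15486 in FLAG on day 6 and from 5513 to 10812 in FLAG on day 9. The summed level of the 10 marker genes, set to 1 in cells with none of the gate genes, was 2.5, 3.79, 5.24, 7.11, 9.35 and 11.6 with each further gene, and rose at every step. UBE2C went from 36.6 to 741 CPM and CENPA from 5.22 to 97.8 CPM between the ends. The 13 S-phase markers went up and came down again, at 1.55, 1.49, 1.34, 1.17, 1.03 and 0.955 times the first step. Replication genes followed the same course, at 1.52, 1.45, 1.32, 1.17, 1.05 and 0.983 times. The replication-dependent histones peaked later, at 2.07, 2.49, 2.43, 2.11, 1.93 and 1.72 times. The peak of the S-phase markers and replication genes lay at 1 gate gene in 3 libraries and at 2 in FLAG on day 6 (1.73 and 1.67 times), and in cells with all 6 genes the S-phase markers stood at 1.1, 0.885, 0.868 and 0.962 times.

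Single genes showed the same sequence. CCNE1 was at 7.04 CPM with none of the gate genes, 10.0 CPM with 1, and then 8.28, 5.48, 3.55, 1.99 and 1.30 CPM. E2F1 went from 30 CPM through 40.3 CPM to 14.4 CPM in cells with all 6. CCNE1 and E2F1 thus peaked with the S-phase markers and fell below their starting level, while MCM6 ran from 59.8 CPM through 77.6 CPM to 29.1 CPM. TUBA1A behaved in another way, falling from 152 to 69.4 CPM at the first step and to 42.3 CPM at the last, and BTG2 fell from 49.8 to 31.4 CPM at the first step and to 21.7 CPM at the last. The larger part of their drop was thus reached by cells with only 1 gate gene.

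**Figure D4:**
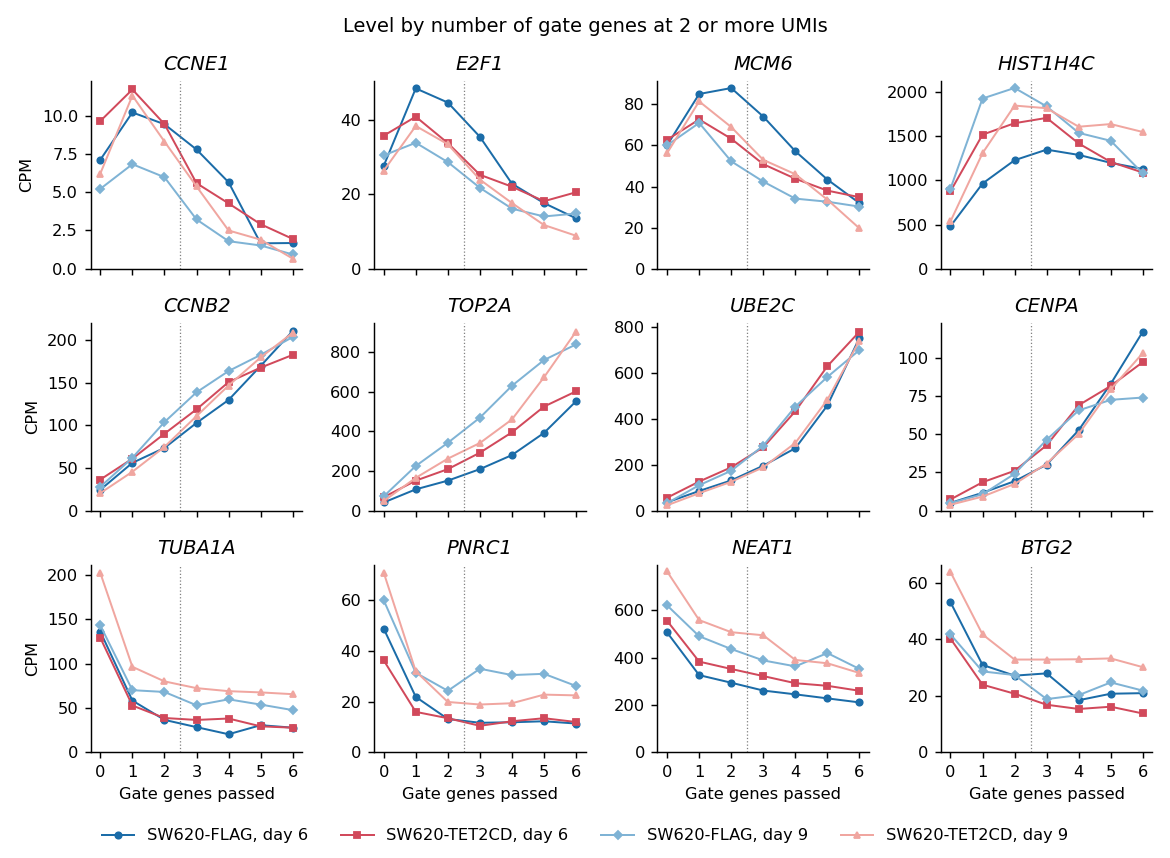
Level (CPM) of 12 genes in cells sorted by the number of gate genes with 2 or more UMIs (0 to 6), 1 line per library of days 6 and 9, with a dotted line at the threshold of the gate. CCNE1, E2F1 and MCM6 peak in cells with 1 or 2 gate genes, CCNB2, TOP2A, UBE2C and CENPA rise to the last step, and TUBA1A, PNRC1, NEAT1 and BTG2 drop first between 0 and 1.

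Among called genes averaging 20 CPM or more, the largest falls in mitotic cells were smaller than the largest rises. Over all tested genes the log2 fold changes ran from −5.31 to 4.92. TUBA1A, an alpha tubulin, stood at 27.6, 33.8, 55.2 and 67.0 CPM in mitotic and 134, 127, 148 and 197 CPM in reference cells, 3.44-fold lower (log2 fold change −1.78, SE 0.10, adjusted p = 1.81e-08). Its relatives TUBA1B and TUBA1C went the other way, with log2 fold changes of 0.72 and 1.40. The 3 are near-identical in their coding sequence, and reads that fit several genes are not counted, so the division of reads between them is uncertain. PNRC1, a nuclear receptor coactivator, stood at 12.1, 12.0, 31.2 and 20.2 CPM against 48.2, 35.8, 62.1 and 69.0 CPM (log2 fold change −1.57, SE 0.11, adjusted p = 2.26e-07). BTG2, an antiproliferative gene that p53 can induce, stood at 23.3, 15.8, 21.7 and 31.5 CPM against 52.5, 39.8, 43.2 and 62.3 CPM (log2 fold change −1.11, SE 0.06, adjusted p = 9.86e-09). In all 3 every mitotic sum was below every reference sum, which was so for 10.7% of the genes tested. GDF15, a stress-induced cytokine, stood at 43.1, 37.8, 43.9 and 30.1 CPM against 85.2, 77.1, 105 and 65.2 CPM (log2 fold change −1.09). KDM5B, a demethylase of histone H3 lysine 4, stood at 5.90, 14.3, 15.7 and 16.5 CPM against 22.6, 23.7, 27.6 and 35.7 CPM (log2 fold change −1.09). By number of gate genes KDM5B averaged 27.5 CPM with none, 11.5 CPM with 1 and 14.7 CPM with all 6, so its drop lay outside the gate. The other 7 large decreases, between −0.98 and −1.39, were those of SPON2, YPEL3 (linked to growth arrest), the antisense RNA IGFL2-AS1, the lipase LIPC, AMACR of branched fatty acid breakdown, PRAP1 and the calcium-binding protein S100P. AMACR and LIPC also fell mostly before the gate. With 0, 1 and 6 gate genes AMACR averaged 91.3, 50.8 and 41.1 CPM, and LIPC 41.6, 23.0 and 19.6 CPM.

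Several groups of genes leaned the same way. Of 23 immediate early genes 14 fell and 2 rose (median −0.28), JUNB of the AP-1 complex by 0.55, while FOSL1 stood at 49.6, 56.9, 44.1 and 45.1 CPM against 29.4, 38, 29.6 and 24.3 CPM (log2 fold change 0.70). Of 13 epithelial and colon genes 11 fell and none rose (median −0.25). KRT19, a keratin of simple epithelia, stood at 1380, 1180, 1590 and 1100 CPM against 1870, 1590, 2270 and 1710 CPM (log2 fold change −0.50), and KRT23 was at −0.94 while KRT18 was at −0.12. The level of KRT19 differed between libraries about as much as between classes, but within each library the mitotic level was the lower one. Of 20 targets of the hypoxia-inducible factor outside glycolysis 12 fell and none rose (median −0.29). BNIP3L, a receptor of mitophagy, stood at 10.6, 11.8, 24.8 and 17.7 CPM against 19, 17.8, 45.6 and 34.1 CPM (log2 fold change −0.83), with both classes higher on day 9, and the transcription factor BHLHE40 and carbonic anhydrase CA9 were at −0.36 and −0.28. With classes matched in UMIs 8 fell and 1 rose, and without the library as block 2 fell.

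Of 78 cytosolic ribosomal proteins 67 fell and none rose, with a small median of −0.13, and with classes matched in UMIs 77 fell, but only 3 without the library as block. In contrast 19 of 21 ribosome biogenesis genes rose (median 0.36), RRP9 by 0.47 and NOP56 by 0.46. In cells with 1 to 6 gate genes their summed level was 1.18, 1.23, 1.23, 1.18, 1.15 and 1.12 times that of cells with none. The level was thus already raised in cells outside the gate and did not rise further within it. All these changes are small, and the classes also differed in mitochondrial share, whose part in them was not tested. The 13 mitochondrially encoded subunits had 9 that fell (median −0.15, MT-CO1 by 0.26), beside the lower mitochondrial share of UMIs given above. The 71 nuclear subunits of oxidative phosphorylation had 13 higher and 14 lower, but 2 higher and 50 lower with upper-quartile scaling, and 21 glycolysis genes had 10 higher and 2 lower, but 3 higher and 5 lower after thinning, so neither list had a direction that held.

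Chaperones rose, 11 of 13 with a median of 0.37, HSPA8 by 0.64 and HSPH1 by 0.60, with HSPB1 the 1 that fell, by 0.23. Their summed level too was already raised outside the gate, at 1.18 times that of cells with no gate gene in cells with 1, and 1.18 times in cells with all 6. Of 12 genes of the integrated stress response 5 rose and none fell, PSAT1 of serine synthesis by 0.44 and MTHFD2 of folate metabolism by 0.43, although the list's median was −0.08. Of 21 genes of the nuclear envelope and lamina 17 rose (median 0.51), the lamin B receptor LBR by 1.1 and LMNB2 by 0.98. Of 13 long noncoding RNAs 8 fell and 4 rose. NEAT1, the scaffold of paraspeckles, stood at 246, 294, 390 and 394 CPM against 499, 549, 641 and 743 CPM (log2 fold change −0.89). Its classes did not overlap, as for the 10.7% of tested genes with every mitotic sum below every reference sum. Of 8 CDK inhibitors 5 rose and 2 fell, CDKN3, a phosphatase named with them, by 1.66, and CDKN1A, which encodes p21, at −1.23 on a mean level of 1.95 CPM. Of 10 apoptosis genes 2 were higher and 3 lower, near the shares over all genes (25.8 and 24.2%), and of the 16 markers of other cell types 5 had enough counts to be tested and none was called.

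The study follows EMT and WNT genes in sets of its own, which can differ from the lists used here. Members of the EMT and WNT lists used here were called about as often as genes in general (25.8% higher and 24.2% lower). Of 8 EMT genes tested 2 rose and 2 fell, VIM by 0.23 upward and CDH1, E-cadherin, by 0.25 downward, and of 16 WNT feedback and target genes 3 rose and 4 fell (median 0.03), with NOTUM, a secreted WNT inhibitor, at −0.41. Of the TET enzymes, TET2 stood at 2.03, 111, 2.15 and 62.3 CPM in mitotic and 3.05, 96.3, 2.72 and 56.9 CPM in reference cells, and did not pass the test (log2 fold change 0.10, adjusted p = 0.27). TET1 fell by 0.18 (adjusted p = 0.0139), TET3 was at 0.09, and DNMT1, which copies methylation onto new DNA, rose by 0.42.

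The lines were compared within the mitotic cells alone, with the day as block. Of 14663 genes, 285 were higher in TET2CD (1.94%) and 189 lower (1.29%) by edgeR's quasi-likelihood test, and 1410 had an unadjusted p under 0.05. None of the 161 genes of the mitotic machinery was called by that test or by DESeq2, and 1 had an unadjusted p under 0.05 in edgeR. The same gate, on genes transcribed with this machinery, chose the cells of both lines, which limits how far the lines could differ in it. The median log2 difference of the 161 genes was 0.01. In the largest lists, spindle genes ran from −0.11 to 0.22 and kinetochore genes from −0.27 to 0.17. A miss of the threshold does not show that the lines were alike, and 1 library per line and day left 1 residual degree of freedom, so that small p-values rest on a dispersion shared across genes. The counts fell to 42 without the day as block, and to between 37 and 253 in fits without the block that left out 1 library (253 without FLAG day 6, 37 without TET2CD day 6, 248 without FLAG day 9 and 57 without TET2CD day 9).

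TET2 itself checked the labels, at 2.01 and 2.14 CPM in FLAG and 110 and 62.3 CPM in TET2CD mitotic cells on days 6 and 9 (log2 fold change 5.43, SE 0.16, adjusted p = 2.32e-28). These are reads that map to TET2, and how the transgene's own transcript was counted was not tested. CALML3, a calmodulin relative, stood at 3.70 and 2.25 CPM in FLAG against 29.1 and 53.8 CPM in TET2CD (log2 fold change 3.63), and CLDN7, a tight junction protein, at 7.18 and 7.96 CPM against 29.1 and 37.1 CPM (log2 fold change 2.11). NXN, nucleoredoxin, and IGFBP2, which binds insulin-like growth factors, were higher by 1.16 and 1.15. Lower in TET2CD were SERPINA1, alpha-1 antitrypsin, at 37.3 and 60.4 CPM against 18.5 and 28.2 CPM (log2 fold change −1.05), CYTL1 at −1.05, CA9 at −0.99, TNFRSF18 at −0.99 and the dipeptidase DPEP1 at −0.86. Without the block 5 of the 10 kept the call, and in the fits that left out 1 library 3 to 9 did.

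Of 20 hypoxia-inducible factor targets 4 were lower in TET2CD mitotic cells and none higher, CA9 among them at 25.3 and 29.9 CPM against 11.5 and 16.5 CPM. Glucose transporters SLC2A1 and SLC2A3 were at −0.36 and −0.90. Of 13 mitochondrially encoded subunits 3 were lower, MT-ND1 (by 0.43), MT-ND5 and MT-ND6. In thinned cells all 3 lost the call in edgeR (adjusted p = 0.167, 0.167 and 0.215). With DESeq2 MT-ND5 and MT-ND6 lost it (adjusted p = 0.0641 and 0.257). The mitochondrial share of UMIs was 3.67 and 6.87% in TET2CD against 5.01 and 7.32% in FLAG, and its part was not tested. Of 16 WNT feedback and target genes 1 was higher and none lower (median −0.01), with 10.40 as the largest log2 fold change in the list. Over all tested genes the changes ran from −5.75 to 10.52. TET2 was the largest only among called genes at 20 CPM or more. Of 8 EMT genes CDH1 was higher by 0.44 and FN1, fibronectin, lower by 1.00. Of 12 epithelial genes CLDN7 and CDH1 were higher and CDX2, an intestinal transcription factor, was lower by 0.52 (median of the list −0.13). The calls of CDH1, FN1 and CDX2 were lost with DESeq2 (adjusted p = 0.531, 0.954 and 1) and in thinned cells, and that of SLC2A1 with DESeq2 (0.225) and in thinned cells (0.0502). Of the 16 markers of other cell types 5 were tested and 2 were higher. PECAM1, an endothelial marker, was at 0.188 and 0.11 CPM in FLAG and 1.15 and 0.619 CPM in TET2CD (not called by DESeq2, adjusted p = 0.879), and LYZ, lysozyme, was at 4.14 and 7.52 CPM in FLAG and 12.8 and 14.3 CPM in TET2CD, higher by 1.28, and made up most of that list's sum.

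Whether the difference between mitotic and reference cells itself depended on the line was asked by an interaction. By edgeR's quasi-likelihood test 0 of 14749 genes passed (0%), with 267 at an unadjusted p under 0.05 and none by DESeq2. The genes named here had the smallest unadjusted p-values on each side among those at 20 CPM or more, and all had an adjusted p of 1. TUBB2B, a beta tubulin, was at 5.14, 19.6, 12.4 and 41.3 CPM in mitotic and 13, 27.4, 22.5 and 54.6 CPM in reference cells, an interaction of 0.63 (SE 0.15) on the log2 scale. The other named ones were TET2 at 0.64, CLCN3 at 0.31, RDH10 at −0.44, DPEP1 at −0.31 and NFKBIA at −0.34. Leaving out TET2CD on day 6 gave 6 calls, leaving out TET2CD on day 9 gave 4, and none were made without either FLAG library.

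Between the days, 923 of 14663 genes were higher in mitotic cells on day 9 than on day 6 (6.29%) and 1128 were lower (7.69%), with the line as block. This comparison also had 1 residual degree of freedom. The gate asks for 2 UMIs at any depth, and mitotic cells had medians of 14668 and 10568 UMIs on day 6 and 8825 and 13282 on day 9. What part this had in the day differences, those of replication genes among them, was not tested. The number of calls was 53 without the block, and 38 without FLAG day 6, 58 without TET2CD day 6, 21 without FLAG day 9 and 363 without TET2CD day 9. Among the largest increases were those of OLMALINC, a long noncoding RNA, at 14.8 and 13.1 CPM on day 6 and 44.6 and 34.3 CPM on day 9 (log2 fold change 1.49, SE 0.12, adjusted p = 2.69e-12), PCSK1N (1.41), MT-ND6 (1.19) and SCD, a fatty acid desaturase (1.04). SNHG25 fell from 63.5 and 57.4 CPM to 15.6 and 17.7 CPM (log2 fold change −1.85, SE 0.11, adjusted p = 1.21e-15) and ANXA1, annexin A1, from 44.0 and 52.4 CPM to 16 and 11.4 CPM (−1.83). HIBADH, MRPL39 and HMCES fell by 1.28, 1.18 and 1.12. In each of these pairs both lines moved the same way. Without the block 7 of the 10 genes chosen by fold change in this comparison kept the call.

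All 13 mitochondrially encoded subunits were higher on day 9 (median 0.73), and the mitochondrial share of UMIs in mitotic cells rose with them, from 5.01 and 3.67% to 7.32 and 6.87%, whose part was not tested. None of the 13 was called without the line as block. Of 71 nuclear subunits 22 were lower, SDHD of complex II by 1.09 (not called by DESeq2, adjusted p = 0.0747) and NDUFB3 of complex I by 0.94. Of 39 replication genes 18 were lower and none higher (median −0.28), UNG by 0.94 and MCM2 by 0.61, as were 10 of the 13 S-phase markers (3 by DESeq2), and without the block none of the 39 was called. Of 30 replication-dependent histones 21 were higher (median 0.58). By DESeq2 8 of the 39 replication genes were lower and 5 of the 30 histones higher. Of 20 hypoxia-inducible factor targets 9 were higher and 1 lower (median 0.33), and 5 of 7 D and E cyclins and kinases were lower, CCND3 by 0.73.

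In the machinery 40 of 161 genes were higher on day 9 and 10 lower, with a median of 0.14, against 24 and 3 after thinning and 8 and 4 by DESeq2. The gate genes, transcribed with this machinery, had summed levels of 1480 and 1710 CPM in mitotic cells on day 6 and 2080 and 1760 CPM on day 9. The machinery is therefore not independent of the gate in this comparison. Spindle genes were 17 higher and 1 lower of 36 (median 0.26), NUSAP1 at 0.51 and ASPM at 0.48 against TROAP at −0.42, and 7 of 13 passenger and checkpoint genes were higher, INCENP by 0.50, with TRIP13 lower by 0.48. In the APC/C list 4 of 19 were lower and none higher. TOP2A was higher by 0.69, a call lost with DESeq2 (adjusted p = 0.144). TET1 was higher by 0.69, while TET2 was lower by 0.67 (adjusted p = 0.000756), from 110 to 62.3 CPM in TET2CD and from 2.01 to 2.14 CPM in FLAG, and this call too was lost with DESeq2 (adjusted p = 0.642).

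The mitotic-minus-reference difference did not pass the test for a change between the days. By edgeR's quasi-likelihood test 0 of 14749 genes passed (0%), with 809 at an unadjusted p under 0.05 and 2 by DESeq2. In the machinery 66 of 161 genes had an unadjusted p under 0.05, with a median interaction of 0.27 against −0.01 over all genes. Here too the machinery is not independent of the gate. CKS2 was at 401, 417, 383 and 365 CPM in mitotic and 124, 131, 90.5 and 85.3 CPM in reference cells (interaction 0.41, SE 0.06, adjusted p = 0.091), and KPNA2, an importin, at 300, 398, 454 and 387 CPM against 88.4, 105, 79.2 and 78.8 CPM (0.56, SE 0.08, adjusted p = 0.091). For CKS2 and KPNA2 the reference level was lower in both day 9 libraries. ARL6IP1 was at 0.47, AKAP12 at −0.60, ANXA1 at −0.59 and FTH1 at −0.13. The count lies near its threshold, since thinned cells gave 54 calls, 33 of them in the machinery, and leaving out 1 library gave 54 to 114 (114 without FLAG day 6, 79 without TET2CD day 6, 97 without FLAG day 9 and 54 without TET2CD day 9).

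On days 12 and 15 the gate took 104 to 313 cells per library, and 79.6 to 92.7% of cells were reference cells. The upper limits on genes and UMIs left out gate-passing cells unequally. Without them 430 and 1074 cells passed in FLAG and TET2CD on day 12, in place of 104 and 313. On day 15 the counts were 269 and 330 in place of 227 and 190. The early counts were 3925, 3205, 2051 and 2781 in place of 2233, 2812, 1977 and 1915. Without these limits the comparison that follows gave 2404 calls. The difference between mitotic and reference cells changed for 1887 of 16003 genes, 1125 with a larger difference upward on the late days (7.03%) and 762 downward (4.76%). MKI67 was at 284, 336, 434 and 385 CPM in early mitotic cells and 343, 266, 482 and 555 CPM in late ones (FLAG and TET2CD on day 12, then on day 15). In reference cells it was at 45.7, 80.9, 76.0 and 45.5 CPM early and 2.17, 4.72, 5.20 and 3.24 CPM late, an interaction of 4.17 on the log2 scale (SE 0.22, adjusted p = 6.82e-12). The mitotic levels of early and late days thus overlapped and the reference levels did not. HJURP, the chaperone of CENPA, NEK2, a centrosome kinase, PBK and TROAP had interactions of 4.82, 4.35, 4.18 and 4.17.

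In summed level the 26 kinetochore genes, all called higher in the interaction (median 2.69), were at 1710 to 1800 CPM in early and 1630 to 1910 CPM in late mitotic cells, and at 596 to 900 CPM in early but 169 to 204 CPM in late reference cells. Spindle genes (33 of 36 called higher, median 2.42) were at 11800 to 12800 and 10700 to 14000 CPM in early and late mitotic cells, and at 5240 to 7100 and 1950 to 2700 CPM in early and late reference cells. Mitotic cells thus held these genes at overlapping levels on early and late days, and the reference levels were lower on the late days. The same gate chose the cells on all days, so levels of genes transcribed with the gate genes are not independent of it. In reference cells the gate genes themselves had a summed level of 95.1 to 156 CPM early and 19.3 to 26.3 CPM late. Replication genes (36 of 39 called higher, median 1.36) were lower in both classes on the late days, at 2320 to 3180 CPM in early and 1140 to 1560 CPM in late mitotic cells and at 1930 to 2670 and 466 to 658 CPM in reference cells. Hypoxia-inducible factor targets were higher in both late classes, at 198 to 309 CPM in early and 799 to 1210 CPM in late mitotic cells and at 208 to 439 and 1250 to 1610 CPM in reference cells.

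**Figure D5:**
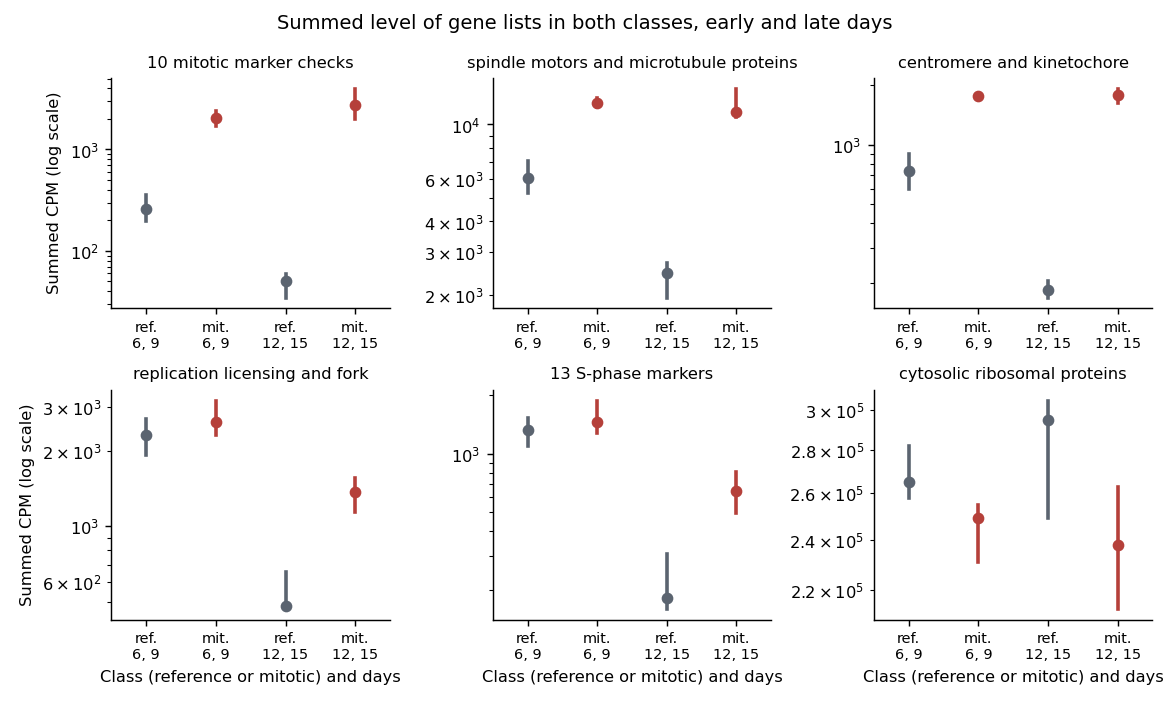
Summed level (CPM, log scale) of 6 gene lists in reference and mitotic cells on days 6 and 9 and on days 12 and 15, with the median as a point and the range over 4 libraries as a bar. The spindle and kinetochore lists overlap between early and late mitotic cells and are lower in late than in early reference cells, while the replication list is lower in both late classes.

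HIST1H2AC, a histone gene whose message can be polyadenylated, was at 18.6 to 25.7 CPM in early and 22.2 to 35.4 CPM in late mitotic cells, against 14.3 to 23.5 and 53.2 to 61.0 CPM in reference cells (interaction −1.16, SE 0.14, adjusted p = 1.24e-06). EGLN3, an oxygen-sensing prolyl hydroxylase, was at 11.4 to 27.5 and 31.2 to 84.3 CPM in mitotic and 8.33 to 34.5 and 71.4 to 136 CPM in reference cells (−1.02). IGFL2-AS1 and SDCBP2 had interactions of −1.13 and −1.03. DIO3OS (interaction −1.10) had reference levels of 42.6 to 56.8 CPM early and 55.7 to 86.2 CPM late, and it was at 29.8 to 38.9 CPM in early and 14.5 to 23.0 CPM in late mitotic cells. Of 78 ribosomal proteins 31 had a more negative difference on the late days and none a less negative one (median −0.14). With classes matched in UMIs in each library, 1174 genes passed in place of 1887, 900 upward in place of 1125 and 274 downward in place of 762. SDCBP2 lost its call (adjusted p = 0.109), and 126 of the 161 machinery genes were higher in place of 128.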

How the data were processed

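The authors deposited filtered UMI counts per gene and cell for 8 droplet-based single-cell libraries, made with Cell Ranger 4.0 on GRCh38. Cell Ranger counts only sense reads that map to 1 gene, so near-identical copies (alpha tubulins, histones, ribosomal proteins) are uncertain. The sources used here do not state how doublets were treated, and none were called. The 6 bulk libraries were not used here.

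Counts were summed per library and class over the 36601 genes of the matrix, and the sums were tested with edgeR 4.0.16 (R 4.3.3; filterByExpr, TMM, quasi-likelihood, two-sided, Benjamini-Hochberg adjusted p under 0.05). The 6 gate genes stayed in library sizes and out of the tests. Both classes come from the same cells' library, so the library was the block. Line and day comparisons used sums of mitotic cells only, with 1 residual degree of freedom. Named genes were the 12 highest and 12 lowest called genes with at least 20 CPM and 1 direction in 4 libraries, 5 each (3 each where none passed) in other comparisons, and up to 2 highest and 2 lowest called per list. Members and the 33 gene lists were chosen with earlier results of these data known. Members named outside this rule (CCNE1, CCNE2, CDKN1A, CDK2, CDK6, RHOA, SLC2A3, LYZ, TUBA1B, TUBA1C) were chosen after their values were seen. Alternatives were DESeq2 1.42.0, other scalings, filters, gates and cell limits, thinning to 5000 UMIs, classes matched within bins of 1000 UMIs, no block, and each library left out. Promoters came from RefSeq (GRCh38.p14). The test was checked on simulated data. A result on 1 withheld item is not reported here.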

Additional observations from a re-analysis of the deposited data

Results flagged for a closer look

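The difference between mitotic and reference cells was itself different on days 12 and 15 from days 6 and 9 for 1887 genes, by the interaction term of the quasi-likelihood fit in edgeR after Benjamini-Hochberg adjustment. The same gate chose the cells on all days, so genes transcribed with the gate genes are not independent of it in this comparison. Among called genes with a mean of at least 20 CPM, the upward ones with the largest interactions on the log2 scale were HJURP (4.82), NEK2 (4.35), PBK (4.18), MKI67 (4.17) and TROAP (4.17), and the downward ones were HIST1H2AC (−1.16), IGFL2-AS1 (−1.13), DIO3OS (−1.10), SDCBP2 (−1.03) and EGLN3 (−1.02). Among 26 groups of 4 libraries, no library stood apart from the other 3 by Dixon's test.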

How the results depend on the processing

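With DESeq2, cells thinned to 5000 UMIs and no library block, mitotic against reference cells gave 4745, 4203 and 2807 calls in place of 7373, and 5759 to 6988 with 1 library left out. TET2CD against FLAG gave 474 calls, and 110 with DESeq2, 972 without upper limits on genes and UMIs and 99 with thinned cells. Day 9 against day 6 gave 2051, and 529 with DESeq2, 1157 with no filter on low counts, 3616 without upper limits and 711 with thinned cells. Without the replicate block these comparisons gave 42 and 53 calls, and with 1 library left out, which also drops the block, 37 to 253 and 21 to 363. The line interaction gave 0 calls, 2 with no filter and 0 to 6 with 1 library left out. The day interaction gave 0 calls, 2 with DESeq2, 74 with no filter, 54 with thinned cells and 54 to 114 with 1 library left out. Matching the classes in UMIs, an alternative for the interactions chosen after seeing the data, gave 3 for the day and 1174 in place of 1887 for the late days (1270 to 2322 with 1 library left out). The mean share of mitotic cells, 32.7%, was 21.5% with 4 or more gate genes, 47.2% with 2 or more, 15.0% in thinned cells and 30.2 to 34.8% with 1 library left out. The mean log2 ratio of UMIs, 0.551, was 0.692 without upper limits and 0.508 to 0.597 with 1 library left out. The causes of these shifts were not tested. None of the genes named by fold change in mitotic against reference cells, line, day or late days changed direction, but the S-phase and replication lists did in thinned cells. Each line and day had 1 library, and late mitotic sums rest on 104 to 313 cells.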
